A study of Mus musculus with 6 samples.

Results

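The genes described here encode the proteins of the cytoplasmic ribosome, in mouse neural stem/progenitor cells grown as neurospheres (NSPs). The rule goes by name: a gene was taken when its symbol in the platform annotation was Rpl or Rps followed by a number, or was Rplp0, Rplp1, Rplp2 or Rpsa, and when at least 1 probe set of the array named it and no other gene. Symbols of the Rps6k kinases and of annotated pseudogenes were left out. This gave 63 genes of the 19938 that had a probe set of their own, 38 with large subunit (Rpl) and 25 with small subunit (Rps) names, measured by 219 of 35557 probe sets. Where several probe sets named a gene, the one with the highest mean over all 6 arrays stood for it. The rule uses no difference between the groups.

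The cells of both groups came from CD1 mice 4 to 6 weeks old, out of the wall of the lateral ventricle, were grown with EGF and FGF, were transduced with a retroviral vector carrying eGFP, and were sorted for eGFP before culture at clonal density. The test group carried the pCMMP-Bmi1 vector (Bmi1 overexpression, 3 arrays), in which Bmi1, a Polycomb repressor subunit, is driven by the virus in whichever cells it entered. This is the construct the labels name, whereas the study's text describes the arrayed test cells as carrying FLAG-tagged Bmi1, and which of both was used was not settled here. The control group carried the empty vector (3 arrays). Each array held total RNA of 1 culture, and the cultures of a group were independent according to the series design. How many mice they came from was not given in the sources used here, and the p-values cover only the spread among these 6 cultures.

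A ribosome joins a small subunit, which reads the mRNA, to a large subunit, which forms the peptide bond. Each subunit holds a single copy of nearly all of its proteins, and the genes for them are scattered over the genome and strongly expressed in growing cells. Their mRNAs begin with a 5' terminal oligopyrimidine (TOP) tract through which mTORC1 controls their translation, so that the mRNA level measured here is not the rate at which the proteins are made. Growing stem and progenitor cells need ribosomes, and several ribosomal protein genes are mutated in Diamond-Blackfan anemia.

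The labels were checked before the results. The titles, the transduction field and the genotype field placed each array in the same group, whereas the source name field gave the opposite group for all 6 arrays, and the first 3 were followed. The probe set for Bmi1 read 7.70, 8.40 and 8.31 on the log2 scale in empty vector cultures and 9.18, 8.36 and 8.42 in Bmi1 cultures. Bmi1 replicate 1 stood far above the controls, whereas replicates 2 and 3 lay beside the higher 2 controls, and the difference of 0.52 (95% interval −0.16 to 1.19) did not pass (limma adjusted p = 0.38). Every direction below therefore rests on the labels. Of 14 neural stem and progenitor markers 13 were measured, with means over all arrays from 3.44 to 12.3. Prom1, Sox9 and Hes5 rose by 1.58, 0.62 and 1.05, and 0 fell. The other 10 did not pass, 5 of the 13 were below 0 (lowest −0.31), and 7 separated the groups upward and 3 downward. Of the 13, 23.1% rose, 53.8% separated upward and 23.1% downward, against 2.23%, 13.8% and 12.9% of all probe sets. Microglial (6 genes, 2.50 to 4.10), endothelial (6 genes, 3.37 to 4.89) and pericyte or fibroblast markers (7 genes, 1.98 to 6.93, highest for Cspg4) held no gene that passed. Array medians over all probe sets were 4.37 to 4.43 in empty vector and 4.44 to 4.45 in Bmi1 cultures, so they did not overlap and stood slightly higher with Bmi1. In bulk RNA a change in the make-up of the culture and a change in RNA per cell cannot be told apart.

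Most ribosomal protein mRNAs read slightly higher in Bmi1-overexpressing than in empty vector NSPs, by amounts of which 1 passed the test. Of the 63 genes 1 rose (Rps12), 0 fell and 62 did not pass at an adjusted p of 0.05 (limma, adjusted over all 35557 probe sets). Over all probe sets 5.7% passed, 2.23% upward and 3.46% downward, so a single call among 63 genes lay near the background. The mean difference was above 0 in 55 of 63 genes (87.3%), against 53.1% of all 19938 genes, and the median was 0.12 on the log2 scale, against 0.01. With each array centred on its own median, 46 genes were above 0 and the median of the 63 was 0.065. The median of all probe sets moved with it, from 0.018 to −0.034. Centring shifts every difference by the same amount, so the distance between both medians, 0.099, could not change and is no check. No test was made of the group as a whole. The genes ranged from −0.17 (Rps27l) to 0.50 (Rpl10l), 35 of them differed by less than 1.1-fold and 59 by less than 1.2-fold.

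**Figure D1:**
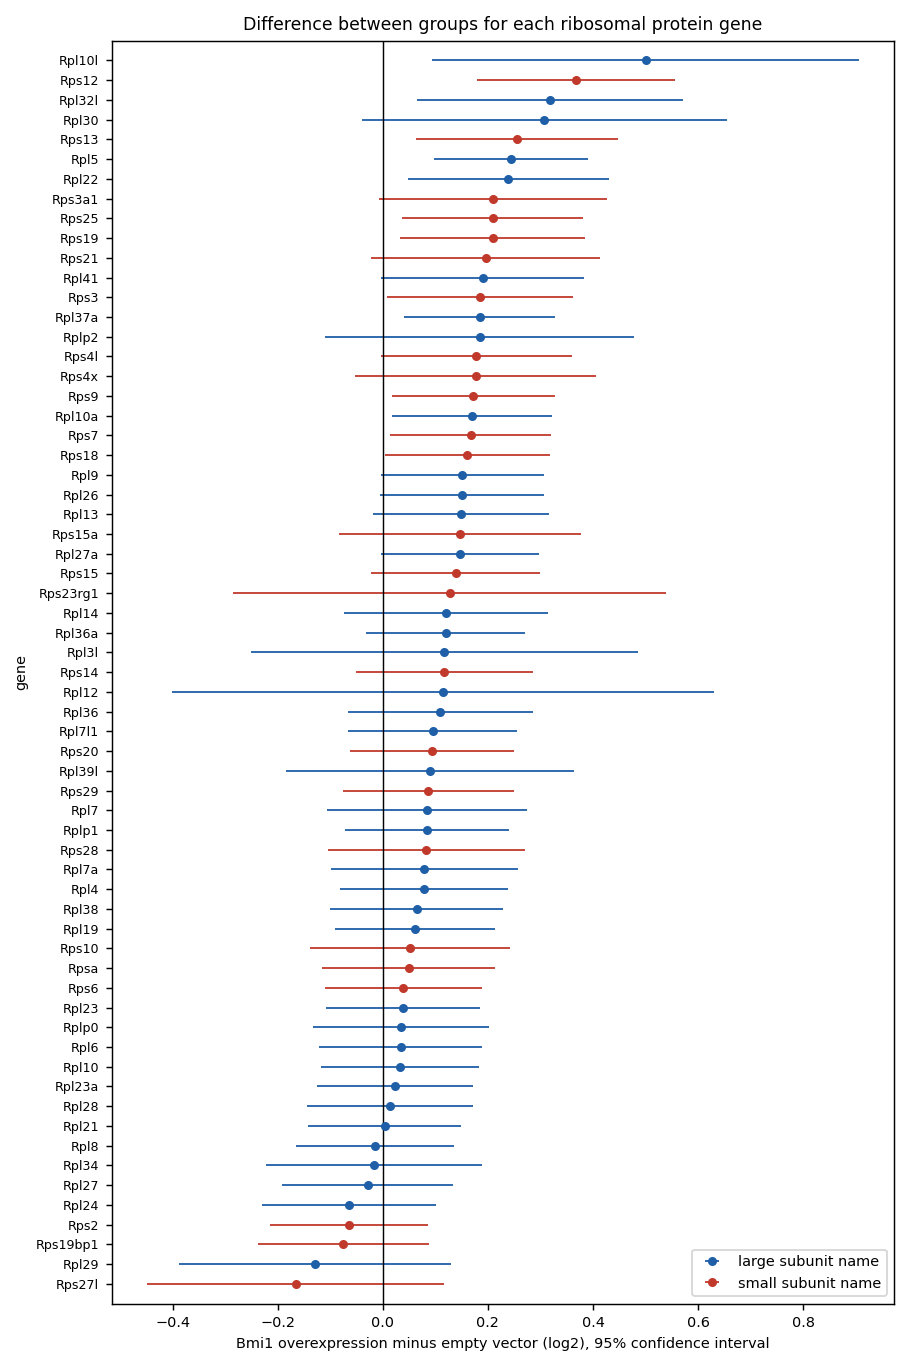
Difference between Bmi1 and empty vector cultures (log2, horizontal) of each of the 63 ribosomal protein genes, with its 95% interval, for large and small subunit names. Of the 63 points 55 lie right of 0, and the intervals run from −0.45 to 0.91 at their extremes.

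The 95% intervals of 57 of 63 genes lay wholly between −0.5 and 0.5, and 0 reached 1 in either direction. The median width to each side was 0.17. Intervals lay above 0 for 14 genes and below 0 for 0 genes, which are the genes with an unadjusted p under 0.05. Over all probe sets 9.96% reached that level upward and 9.91% downward, against 22.2% and 0 of these genes. The 3 Bmi1 cultures all lay above the 3 empty vector cultures in 29 genes (46.0%) and all below in 1 (Rps2), where 13.8% and 12.9% of all probe sets separated upward and downward. The residual SD of these genes was small (median 0.056, against 0.128 over all probe sets), and its part in the separation was not tested. Among the 350 other genes with a mean of at least 10, bright like many ribosomal protein genes, 130 were above 0 with a median of −0.05, 68 separated upward and 140 downward.

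**Figure D2:**
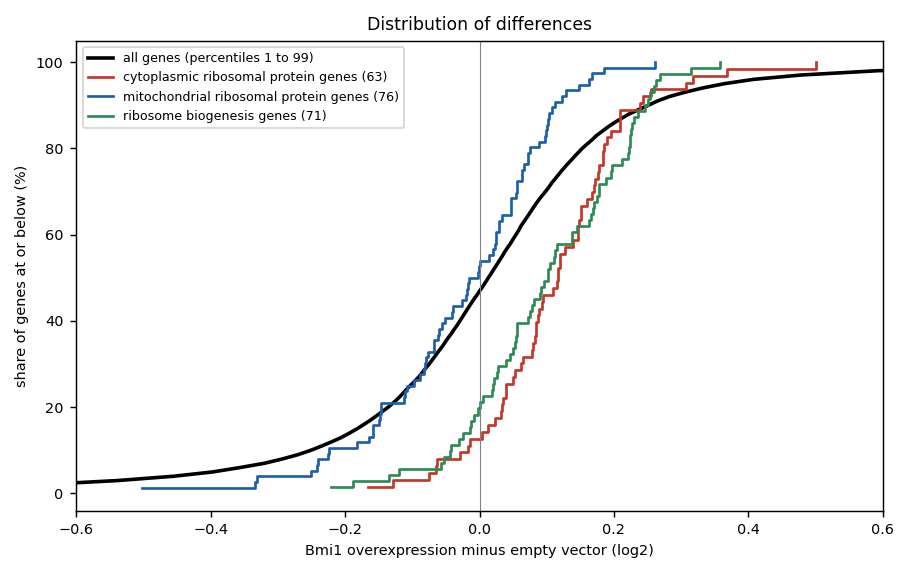
Cumulative share of genes (%, vertical) at or below each log2 difference between Bmi1 and empty vector cultures (horizontal), for the 63 cytoplasmic ribosomal protein genes, 76 mitochondrial ribosomal protein genes, 71 ribosome biogenesis genes and all genes (percentiles 1 to 99). The cytoplasmic genes have a median of 0.12 and all genes one of 0.01.

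Both subunits shared the direction. Of 38 genes with large subunit names 33 were above 0, with a median of 0.09, 0 passed and 15 separated upward. Of 25 genes with small subunit names 22 were above 0, with a median of 0.15, 1 passed, 14 separated upward and 1 downward. Upward separation covered 39.5% of the large and 56% of the small subunit names, against 13.8% of all probe sets. Whether the subunits differed was not tested. Brightness did not divide the genes by sign, since 35 of 38 with a mean of at least 10 and 20 of 25 below it were above 0, with medians of 0.09 and 0.15.

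The median gene was above the empty vector mean in each Bmi1 culture. Relative to the empty vector mean, the median ribosomal protein gene stood at 0.00, −0.02 and 0.01 in the empty vector cultures and at 0.12, 0.16 and 0.07 in the Bmi1 cultures. Bmi1 replicate 2 was the highest of its group for 44 of 63 genes and replicate 3 the lowest for 47. Bmi1 mRNA itself was highest in replicate 1. With 3 against 3 cultures the smallest two-sided p of an exact permutation test for a single gene is 0.1.

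**Figure D3:**
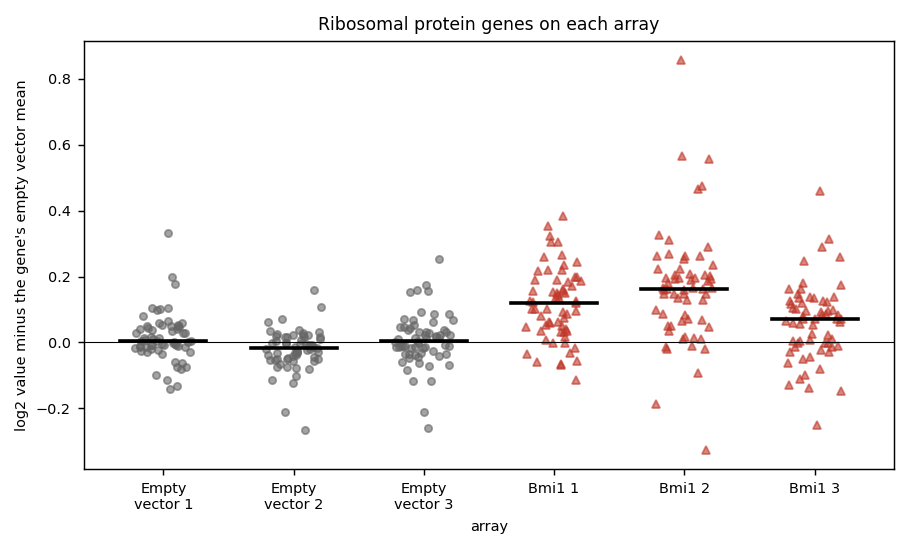
Log2 value of each of the 63 ribosomal protein genes minus its empty vector mean (vertical), by array, with the array's median as a bar. The medians of the Bmi1 cultures are 0.12, 0.16 and 0.07.

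The promoters of 3 genes are printed because they belong to the gene that rose, to the gene with the next smallest adjusted p, and to a gene that passed under 4 other settings. Each run is the 150 bases before the annotated start in RefSeq on GRCm38.p6, read 5' to 3' on the strand of the gene. Capitals mark GGAAGT or its reverse complement ACTTCC, a core of sites bound by ETS factors such as GABP.
Rps12, chr10:23787210-23787359, strand -: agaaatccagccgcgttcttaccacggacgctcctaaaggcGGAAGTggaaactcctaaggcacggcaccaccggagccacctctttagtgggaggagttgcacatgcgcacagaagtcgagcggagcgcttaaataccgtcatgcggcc
Rpl5, chr5:107900378-107900527, strand +: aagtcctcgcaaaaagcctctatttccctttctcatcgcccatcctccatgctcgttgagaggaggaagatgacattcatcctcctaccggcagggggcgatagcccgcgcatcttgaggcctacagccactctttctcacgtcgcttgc
Rpl37a, chr1:72711110-72711259, strand +: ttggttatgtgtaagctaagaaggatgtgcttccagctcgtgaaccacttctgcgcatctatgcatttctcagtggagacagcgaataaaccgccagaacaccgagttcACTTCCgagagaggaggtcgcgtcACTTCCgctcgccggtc

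These runs hold the letters once for Rps12, not for Rpl5, and at more than 1 place for Rpl37a. RefSeq promoters (250 bases before to 50 after the start, 300 in all) were matched for 51 of the 63 genes. The ETS core, sought on both strands, was in 25 of 51 (49.0%), against 7175 of 27025 genes (26.5%). The letters AAGATGG, a core of YY1 sites, were in 5 (9.80%), against 7.28% of all genes, and TATAAA was in 6 (11.8%), against 15.7%. Genes with the ETS core had a median difference of 0.15 and genes without it one of 0.12. The values of these 3 genes follow.

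Rps12, a protein of the small subunit head whose gene also hosts small nucleolar RNAs, read 10.76, 10.63 and 10.74 in empty vector cultures. In Bmi1 cultures it read 11.03, 11.17 and 11.02, so the groups did not overlap. It rose by 0.37 (SE 0.078, 95% interval 0.18 to 0.56), or 1.29-fold, with a limma adjusted p of 0.0496 that lay at the threshold. It passed under 7 of 20 other settings and under none of the 6 that dropped an array, which gave adjusted p-values of 0.095 to 0.15. Of its 14 probe sets, which ranged from 0.34 to 0.38, 8 passed. The 14 held only 8 distinct sets of values. Some probe sets that passed repeated the same values, and not every distinct set passed.

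Rpl5 binds 5S rRNA and, with Rpl11, can hold Mdm2 and thereby stabilise p53. It read 11.06, 11.03 and 11.01 in empty vector and 11.26, 11.30 and 11.28 in Bmi1 cultures, with no overlap. The difference was 0.24 (SE 0.061, 95% interval 0.10 to 0.39), or 1.18-fold, and did not pass (limma adjusted p = 0.080). Its 5 probe sets ranged from 0.24 to 0.32, all separated the groups, and 1 passed (limma adjusted p = 0.037). The gene passed under 6 of the 19 other settings that give an adjusted p, which ranged from 0.0047 to 0.23. Rpl11 had only probe sets shared with other genes.

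Rpl37a, a zinc-finger protein of the large subunit, varied little within groups. It read 9.41, 9.41 and 9.43 in empty vector and 9.61, 9.61 and 9.58 in Bmi1 cultures. The groups were separate, and the difference of 0.18 (95% interval 0.04 to 0.33) did not pass (limma adjusted p = 0.15).

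**Figure D4:**
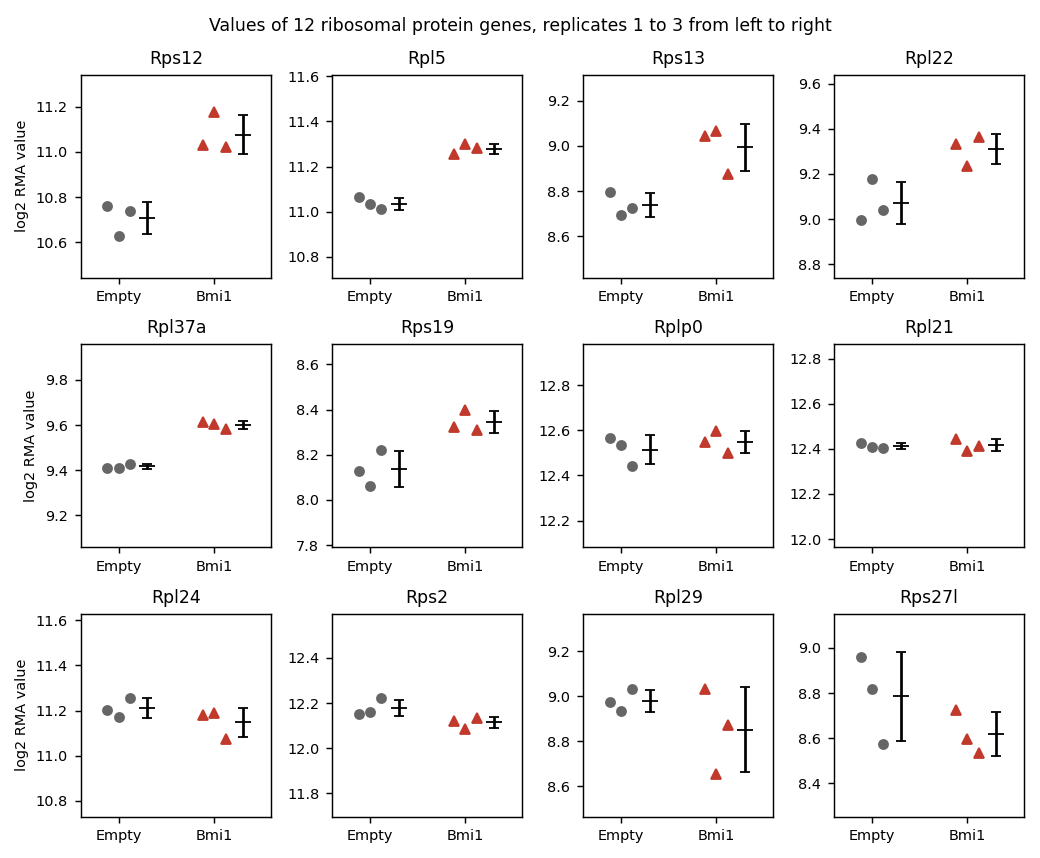
Log2 RMA values (vertical) of 12 ribosomal protein genes in the 3 empty vector (circles) and 3 Bmi1 cultures (triangles), with the mean and SD of each group beside the points. The vertical axes have different levels; Rps12 lies between 10.63 and 10.76 in empty vector and between 11.02 and 11.17 in Bmi1 cultures.

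Further genes separated the groups without passing. Rps13, a small subunit protein, read 8.80, 8.69 and 8.73 in empty vector and 9.04, 9.06 and 8.87 in Bmi1 cultures, a difference of 0.26 (limma adjusted p = 0.14). Rpl22, a large subunit protein that is dispensable in most tissues but needed for alpha-beta T cells, read 9.00, 9.18 and 9.04 against 9.33, 9.24 and 9.36, a difference of 0.24 (limma adjusted p = 0.16). In both genes every Bmi1 culture lay above every control. Rps19, the gene most often mutated in Diamond-Blackfan anemia, read 8.13, 8.06 and 8.22 against 8.32, 8.40 and 8.31, a difference of 0.21 (limma adjusted p = 0.18). Rps25, which some viral internal ribosome entry sites require, had a difference of 0.21 (limma adjusted p = 0.17) and all 6 of its probe sets separated the groups. Of 9 listed Diamond-Blackfan genes 4 were measured (Rps7, Rps10, Rps19 and Rpl5), all 4 were above 0 with a median of 0.19, and 0 passed.

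The proteins of the ribosomal stalk, where elongation factors dock, are encoded by Rplp0, Rplp1 and Rplp2. Rplp0, often used as a reference gene in qRT-PCR, read 12.57, 12.54 and 12.44 in empty vector and 12.55, 12.60 and 12.50 in Bmi1 cultures, overlapping values with a difference of 0.03 (95% interval −0.13 to 0.20). Rplp1 differed by 0.08 and Rplp2 by 0.18, and neither passed (limma adjusted p = 0.56 and 0.48). The probe set of Rplp2 read low, with means of 4.84 in empty vector and 5.02 in Bmi1 cultures, near the array medians. Rplp1 had means of 11.99 and 12.08. Of 4 listed genes on the X chromosome 3 were measured. Rpl10 differed by 0.03, Rpl36a by 0.12 and Rps4x by 0.18, and 0 passed. Of 18 listed hosts of intronic small nucleolar RNAs 13 were measured, all above 0 with a median of 0.08, and Rps12 rose.

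Paralogs and retrogenes, some of which replace a standard ribosomal protein in particular tissues, were 6 of 10 measured, 5 above 0 with a median of 0.11 and 0 passing. Rpl10l, a retrogene of Rpl10 known for its role in male germ cells, read 3.90, 3.91 and 4.14 in empty vector and 4.37, 4.84 and 4.25 in Bmi1 cultures, levels close to the array medians. It had the largest difference of the 63 genes (0.50, 95% interval 0.09 to 0.91), the groups did not overlap, and it did not pass (limma adjusted p = 0.17). Its parent Rpl10 differed by 0.03. Rpl3l (0.12), Rpl7l1 (0.09), Rpl39l (0.09) and Rps4l (0.18) did not pass either. Rpl3l and Rpl39l read below the array medians, with empty vector means of 3.34 and 2.06 and Bmi1 means of 3.46 and 2.15. Rpl32l, named after Rpl32, differed by 0.32 (limma adjusted p = 0.16). Rps23rg1, a retrogene of Rps23, differed by 0.13 (limma adjusted p = 0.75), with means of 4.34 and 4.47, near the array medians. Without the paralogs, both of these and Rps19bp1, a binding partner of Rps19 and no ribosomal protein, 48 of 54 genes were above 0, with a median of 0.12 and 1 that rose.

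Rpl30, a large subunit protein whose yeast counterpart regulates its own splicing, was among the 5 largest differences without separating the groups. It read 6.78, 6.47 and 6.50 in empty vector and 6.80, 7.15 and 6.72 in Bmi1 cultures, a difference of 0.31 (limma adjusted p = 0.31). These readings come from the 1 probe set that names Rpl30 alone. The 10 that name it together with other genes differed by 0.08 to 0.11, and 0 of them passed.

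Of the 8 genes below 0 the farthest was Rps27l, a p53-responsive paralog of Rps27. It read 8.96, 8.82 and 8.57 in empty vector and 8.73, 8.60 and 8.53 in Bmi1 cultures, with overlap, and its difference of −0.17 (95% interval −0.45 to 0.12) did not pass (limma adjusted p = 0.51). Rpl29 (−0.13), Rps19bp1 (−0.08), Rps2 (−0.06) and Rpl24 (−0.06) came next and did not pass. Rps2, a protein at the mRNA entry channel, read 12.15, 12.16 and 12.22 against 12.12, 12.09 and 12.14. By the probe set that stood for each gene, it was the only one whose Bmi1 cultures all lay below the controls. Another Rps2 probe set had all Bmi1 cultures above the controls, with a difference of 0.14.

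Several probe sets of a gene gave mostly the same answer. Of the 219 probe sets 205 were above 0, 9 passed upward (8 of Rps12, 1 of Rpl5) and 0 downward, and 115 separated the groups upward. These were 4.11% passing upward and 52.5% separating upward, against 2.23% and 13.8% of all probe sets. The 219 held 207 distinct sets of values, so part of the likeness within genes was repetition of the same values. For 39 genes with more than 1 probe set, the median range between them was 0.038. Rps2 had the widest range, 0.20, from −0.06 to 0.14, and 2 of its 3 probe sets separated the groups in opposite directions. Rpl21 (9 probe sets, −0.04 to 0.04) and Rpl27 (4 probe sets, −0.03 to 0.02) also had both signs. Rpsa, a small subunit protein known also as the laminin receptor, differed by 0.05 in the brightest of its 5 probe sets and by up to 0.24 in the others, and 4 separated the groups. Processed pseudogenes of ribosomal protein genes are abundant in the mouse genome and can share probes with them, so a value may hold signal of both.

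**Figure D5:**
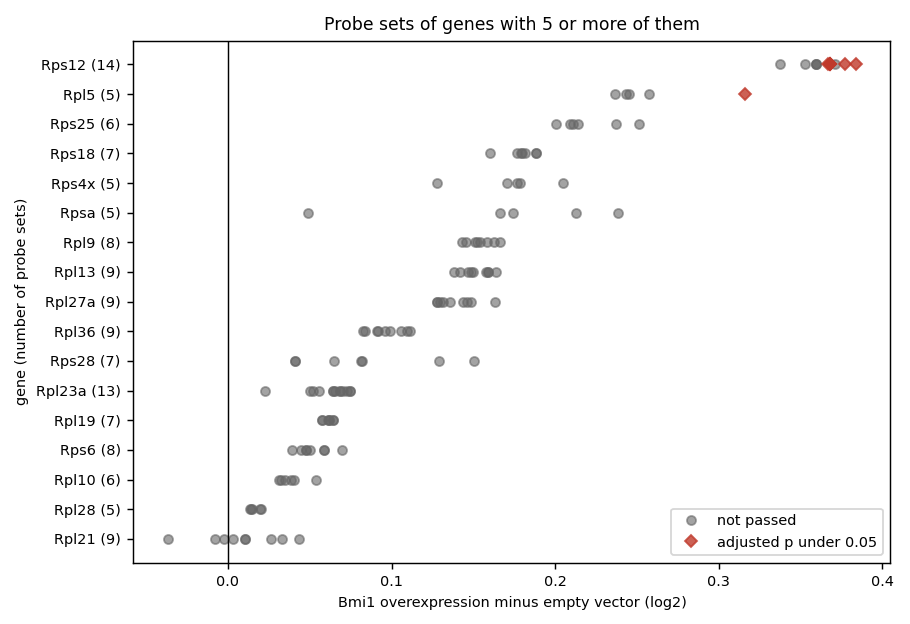
Log2 difference between Bmi1 and empty vector cultures (horizontal) of each probe set that names a single ribosomal protein gene, for genes with 5 or more of them (number in brackets); diamonds have a limma adjusted p under 0.05. Points of Rps12 lie between 0.34 and 0.38 and those of Rpl21 on both sides of 0, from −0.04 to 0.04.

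Of the ribosomal protein symbols, 20 had only probe sets that also name other genes and are not among the 63. In all 239 probe sets named a ribosomal protein gene together with other genes. For Rps27, an S27 protein with a zinc finger, the 2 probe sets shared with Rps27rt differed by 0.35 and 0.37 and 1 of them rose (limma adjusted p = 0.049). The 4 shared probe sets of Rps12 differed by 0.35 to 0.37, like its own. Rpl13a, known for its part in silencing inflammatory mRNAs, ranged from −0.15 to 0.34 over 4 shared probe sets. These values cannot be assigned to a single gene.

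Other parts of the translation machinery were set beside them as lists. Fau, whose product is processed to the small subunit protein S30, was the 1 of 3 ribosomal proteins outside the naming rule with its own probe set. Its mean was 9.99 in empty vector and 10.09 in Bmi1 cultures, groups that did not overlap, and the difference of 0.11 did not pass (limma adjusted p = 0.41). Of 76 mitochondrial ribosomal protein genes 36 were above 0, with a median of −0.01, 6 separated upward and 15 downward. Mrps6, of the mitochondrial small subunit, fell by 0.50, from 9.41 to 8.90 (limma adjusted p = 0.0098), and no other gene of that list passed. The mitochondrial ribosome, which translates the mRNAs of the mitochondrial genome, had a median near 0 beside the 0.12 of the cytoplasmic genes, and this difference was not tested.

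Most genes whose products build ribosomes were also above 0, with few that passed. Of 71 ribosome biogenesis genes 57 were above 0, with a median of 0.10, and 0 passed. Nat10, an RNA acetyltransferase of 18S rRNA, differed by 0.36 with a limma adjusted p of 0.0503. Of 15 genes of RNA polymerase I and rDNA transcription 11 were above 0, with a median of 0.13, and Taf1b, a subunit of the selectivity factor SL1, rose from 6.06 to 6.47 (limma adjusted p = 0.048). Of 14 chaperones and assembly partners of ribosomal proteins 13 were above 0, with a median of 0.12, and 0 passed.

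The factors that act on finished ribosomes had medians under 0.12. Of 37 initiation factors 20 were above 0, with a median of 0.01 and differences from −0.30 to 0.26. Of 11 elongation and release factors 8 were above 0, with a median of 0.07 and differences from −0.79 to 0.27. In either list 0 passed, with lowest limma adjusted p-values of 0.10 and 0.053. Of 16 other TOP mRNAs 13 were above 0, with a median of 0.08, and 0 passed.

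Of 24 genes of mTORC1 and growth control 1 rose and 3 fell. Mycn, a transcription factor that drives ribosome genes and neural progenitor growth, rose by 1.09, from 4.92 to 6.01 (limma adjusted p = 0.0029). Mxd4, which competes with Myc proteins for Max, fell by 1.00, from 8.79 to 7.79 (limma adjusted p = 9.6e-04). Rptor, the mTORC1 subunit that binds substrates, fell by 0.82 (limma adjusted p = 0.0042), and Sesn2, an inhibitor of mTORC1, fell by 0.72 (limma adjusted p = 0.0031). The median of the list was −0.09.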

How the data were processed

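RNA of 6 neurosphere cultures (3 per group, 300 ng each) was hybridised to mouse whole-transcript arrays (Affymetrix Gene ST). The authors made the deposited log2 values with RMA in Affymetrix Expression Console, whose version was not given in the sources used here, so background correction, quantile normalization and probe summary had been done and were kept. RMA forces like distributions on the arrays, so a change common to all mRNAs could not be seen, and precision is set by how few arrays there are. Titles, transduction and genotype fields gave the groups. Of 35557 probe sets, the platform annotation gave 21789 a single gene, 1621 several and 12147 none. All were fitted with limma 3.58.1 (R 4.3.3, lmFit and eBayes, Benjamini-Hochberg over all probe sets, threshold 0.05), after a check on simulated data. Levels of different probe sets were compared only to pick a gene's probe set, to filter or group by brightness and to describe readings. They were not tested against each other.

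The members and lists were chosen with earlier results of these data known. Genes were named when they passed, had the 5 largest or 5 smallest differences, belonged to the stalk, 5S rRNA partner, X chromosome, paralog or not-ribosomal groups, or had disagreeing probe sets. In other lists, up to 4 called genes were named. Rpl22, Rpl37a, Rps19, Rps25, Rps13, Rpsa, Rps23rg1, Nat10, the Diamond-Blackfan genes and the probe sets shared with other genes were named after their values were seen. Alternatives were the methods' t-test, Welch's form of it, filters on dim probe sets (mean of at least 5 or 6), a single probe set for each gene, centring on the median, quantile normalization, eBayes with trend or robust, array weights, a replicate block, each array left out, and the mean of all probe sets or the lowest-mean probe set per gene.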

Additional observations from a re-analysis of the deposited data

How the results depend on the processing

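The number of ribosomal protein genes that rose, 1 in the reported fit, was 10 with an intensity trend in eBayes, 10 and 6 with probe sets of mean at least 6 and at least 5, and 2 in each of 3 settings. These 2 were Rpl5 and Rpl37a with the methods' t-test after Benjamini-Hochberg adjustment, where Rps12 had an adjusted p of 0.075, and Rpl5 and Rps12 with 1 probe set per gene or with each gene's lowest-mean probe set. The count was 0 with the methods' own limits (p of 0.001 and a difference of at least 1), Welch's test, median centring, quantile normalization and robust eBayes. It was also 0 with each array left out (range 0 to 0), where Rps12 had a limma adjusted p of 0.095 to 0.15. It stayed at 1 with array weights and the mean of all probe sets. In 0 settings did a ribosomal protein gene fall. With the trend 10 of 63 ribosomal protein genes rose, against 1364 of 35557 probe sets, so their share lay above the background. In the reported fit 1 of 63 rose, against 794 of 35557 probe sets. With the filters at 5 and 6, 6 of 57 and 10 of 56 of these genes rose. Among all probe sets kept, 1544 and 1346 rose, and their shares were not computed. None of these shares was tested. Over the 19 settings that give an adjusted p, that of Rps12 ranged from 0.0053 to 0.17. The median difference of 0.12 fell to 0.065 with median centring, which put 46 of 63 genes above 0 and moved the median of all probe sets to −0.03. The other settings gave medians from 0.093 to 0.136, with each array left out included. The cause of these changes was not tested. The filters test fewer probe sets and leaving out an array uses fewer samples. In the reported fit the prior SD, towards which limma moves each gene's own SD, was 0.119. Of the 63 genes 53 had a residual SD under it, so the fit used a larger SD than their own. Its part in the counts was not tested. Over all probe sets 2025 passed in the reported fit, against 3424 and 3193 with the filters at 5 and 6, 3190 with the trend, 300 with the methods' limits, 210 with Welch's test, and 974 to 1275 with each array left out.

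With the replicate number as a block, 0 ribosomal protein genes rose and 850 probe sets passed, 306 upward and 544 downward. The deviations of same-numbered cultures correlated at 3.4e-05, −0.032 and −0.018 over all probe sets and at −0.23, 0.15 and 0.14 over the 63 genes. Not every pair was above 0.1 on either count, and no block was used in the reported fit. The deviations within a group sum to 0, so these correlations are not independent and cannot decide whether same-numbered cultures were paired. Under the block Rps12 had a limma adjusted p of 0.17.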
